A study of Mus musculus with 6 samples.

Results

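A set of 9 mature miRNAs was examined in reperfused mouse hearts. They were chosen by name, as miRNAs enriched in leukocytes (mmu-miR-142a-3p, mmu-miR-142a-5p, mmu-miR-223-3p, mmu-miR-223-5p, mmu-miR-150-5p and mmu-miR-342-3p) or linked to NF-κB, the transcription factor of inflammatory signalling (mmu-miR-155-5p, mmu-miR-146a-5p and mmu-miR-146b-5p). All 9, written below without the species prefix, were found among the 2009 miRNA names of the deposited table. The ischemia-reperfusion (I/R) group held 3 male hearts that stood still for 30 min in cardioplegia, the arresting solution of heart surgery, before 1 h of reperfusion. The sham group held 3 male hearts that kept beating. Hearts of both groups were isolated and perfused on a Langendorff system, which feeds the heart through the aorta, so all of them were cut off from the circulation. The sources used here name no strain, age or perfusate.

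A miRNA is cut from a hairpin precursor that has a 5p and a 3p arm, and it represses mRNAs that pair with its seed, the bases at positions 2 to 8. miR-142 is made throughout the blood cell lineages and miR-223 mainly in granulocytes and monocytes. miR-150 is a miRNA of mature lymphocytes, and miR-342 is found in lymphocytes and other cells. miR-155 is induced when leukocytes are activated. miR-146a is induced by NF-κB and represses Traf6 and Irak1, which act in Toll-like receptor signalling. It thereby feeds back on the pathway that induces it.

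The mature sequences of 8 members were found in RefSeq (GRCm38.p6) and are shown because the seed groups them and because close or opposite sequences bear on how reads were assigned. Capitals mark the seed.
miR-142a-5p: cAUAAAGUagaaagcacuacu
miR-142a-3p: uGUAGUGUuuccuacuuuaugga
miR-223-5p: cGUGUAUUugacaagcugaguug
miR-223-3p: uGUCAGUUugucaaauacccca
miR-342-3p: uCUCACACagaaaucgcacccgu
miR-155-5p: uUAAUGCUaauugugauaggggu
miR-146a-5p: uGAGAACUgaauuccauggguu
miR-146b-5p: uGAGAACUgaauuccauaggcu
miR-146a-5p and miR-146b-5p had the same seed and were the same at 20 of 22 positions. Counted from 1 at the 5′ end of miR-146a-5p, they differed by G18A and U21C, both outside the seed. No other mouse miRNA in the RefSeq table carried the seed of any of the 8.

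The miR-142 hairpin lies at chr11:87756864-87756927 on the plus strand, in an intron of the lincRNA Mir142hg. A further miRNA, miR-142b, is annotated on the opposite strand of the same locus, at chr11:87756906-87756925. Its sequence is printed because it mirrors a member.
miR-142b: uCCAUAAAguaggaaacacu
All 20 of its bases were the reverse complement of miR-142a-3p from position 4 on. The miR-223 hairpin lies at chrX:96242817-96242926 in an exon of F630028O10Rik, the miR-342 hairpin at chr12:108658620-108658718 in an intron of Evl, and the miR-155 hairpin at chr16:84714140-84714204 in an exon of Mir155hg, all on the plus strand. The miR-146b hairpin lies at chr19:46342762-46342870 on the plus strand in an intron of Mfsd13a. The miR-146a hairpin lies at chr11:43374397-43374461 on the minus strand, where the annotation lists no gene apart from the miRNA itself.

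The libraries held 7874103 to 9197869 reads on miRNA names, and levels are given in reads per 1000000 of these reads (RPM). In single libraries, 3 reads made 0.326 to 0.381 RPM. The heart muscle miRNAs miR-208a-3p (147 to 181 RPM) and miR-499-5p (5217 to 6248 RPM) were present in every library, as the heart label requires. The erythroid miR-451a lay at 2.07, 4.77 and 1.40 RPM in I/R hearts and at 6.09, 4.97 and 3.09 RPM in sham hearts. It was thus of the same order as the scarcer leukocyte miRNAs. The list of 5 red blood cell miRNAs summed to 3035 to 3797 RPM in I/R hearts and 2747 to 3408 RPM in sham hearts, nearly all of it miR-486a-5p and miR-486b-5p, which muscle also makes. miR-144-3p and miR-144-5p, made with miR-451a in red blood cells, did not pass the filter, and miR-144-5p had 0 reads in 3 libraries. Sham heart 2 stood apart in several members, and I/R heart 3 in both miR-146 miRNAs, and the results this touches are given with and without those hearts.

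Together the 9 miRNAs held 0.0519% of the reads in I/R hearts and 0.0462% in sham hearts. Their summed level was 486, 455 and 616 RPM in I/R hearts 1 to 3, against 433, 492 and 462 RPM in sham hearts 1 to 3. The groups overlapped, and I/R heart 3 was the highest. miR-146a-5p and miR-146b-5p made up 70.8% of the summed level over all libraries. The libraries are labelled as heart and not by cell type. The cells the reads came from, the number of such cells and the amount of miRNA per cell thus cannot be told apart.

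All 9 passed the filter on low values, which left 409 names, yet they spanned a wide range of levels. By mean level over the 6 libraries, miR-146b-5p ranked 83rd of the 409 and miR-142a-3p, the scarcest, 392nd. Between these stood miR-146a-5p at rank 105, miR-150-5p at 133, miR-155-5p at 164, miR-223-5p at 192, miR-142a-5p at 232, miR-223-3p at 280 and miR-342-3p at 281. The highest member had a mean level 171 times that of the lowest. Neighbours in this order kept it in 6 of 6 libraries, except miR-223-3p and miR-342-3p, where miR-223-3p was the higher in 3 of 6. For miR-146b-5p and miR-146a-5p the order held within each library although their ranges over libraries overlapped. Different miRNAs are captured with different efficiency in small RNA libraries, so the order describes reads rather than molecules.

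**Figure D1:**
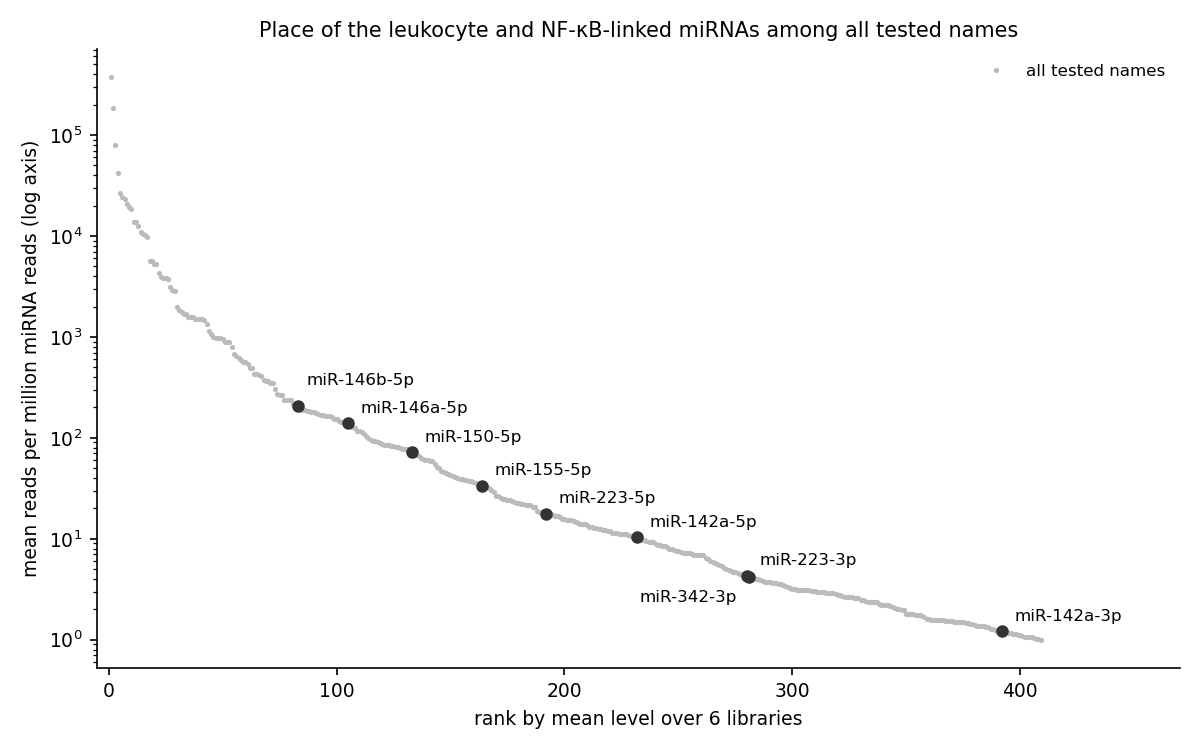
Mean level over 6 libraries in RPM (log axis) against rank for the 409 tested miRNA names (grey), with the 9 leukocyte and NF-κB-linked miRNAs in black. The 9 run from rank 83 (miR-146b-5p) to rank 392 (miR-142a-3p), and none is among the 10 most abundant.

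The main comparison asked whether these miRNAs differ between I/R and sham hearts. None of the 9 passed the test. Changes were tested with limma on log2(RPM + 1) over all 409 names, called below 0.05 after Benjamini-Hochberg adjustment, and the adjusted p of the 9 ran from 0.598 to 0.992. Over all names limma called 0 (0.0%), with 30 names (7.33%) at an unadjusted p under 0.05, and 1 of the 9, miR-223-5p, was among these 30. edgeR also called 0 of 409, DESeq2 called 2 (0.489%), and limma and edgeR with the replicate number as a block called 4 each (0.978%), with 0 members among them. Of the 9, 5 had positive and 4 negative fold changes. Their median log2 fold change was 0.01, against a median of 0.10 and 287 of 409 positive (70.2%) over all names. With TMM scaling, which brought the median of all names to -0.01, 3 of the 9 were positive, and their median was -0.09. Without sham heart 2, 8 of the 9 were positive, and their median was 0.16, against 0.12 over all names.

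**Figure D2:**
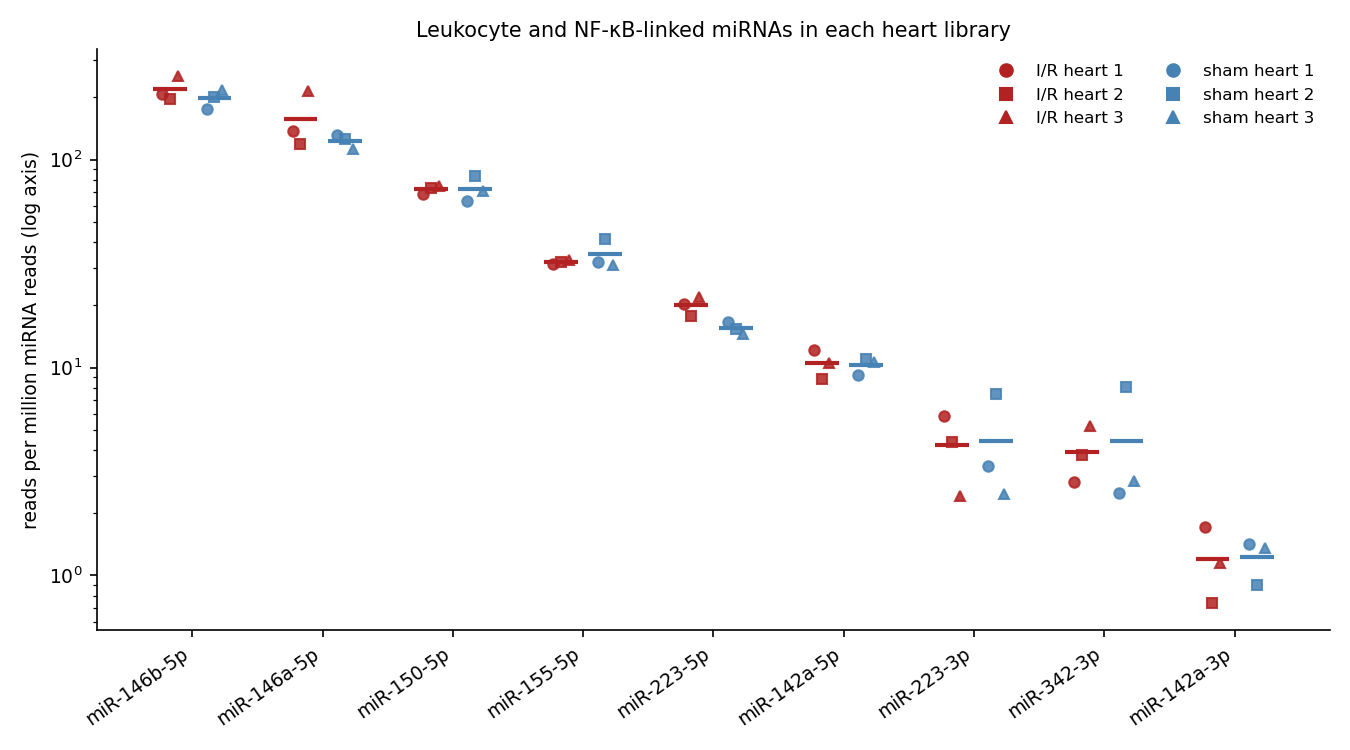
RPM (log axis) of each of the 9 miRNAs in I/R hearts (red) and sham hearts (blue). Symbols are single libraries and bars the group means (n = 3 hearts each). The groups overlap for 8 miRNAs, and miR-223-5p lies higher in all 3 I/R hearts than in any sham heart. Over all 409 tested names, 15.2% had groups without overlap, and 11.2% lay higher in I/R hearts.

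The broadly leukocytic miR-142 was scarce, and its values overlapped between groups. miR-142a-5p had 12.1, 8.80 and 10.5 RPM in I/R hearts, against 9.24, 11.0 and 10.6 RPM in sham hearts. The highest and the lowest value both came from I/R hearts. Its limma log2 fold change was 0.02 (SE 0.16, 95% interval -0.35 to 0.39, adjusted p = 0.971), and the sign turned with TMM scaling. miR-142a-3p had 1.71, 0.734 and 1.14 RPM in I/R hearts, against 1.41, 0.904 and 1.36 RPM in sham hearts. Those values rest on 6 to 14 reads per library. Its log2 fold change was -0.04 (SE 0.25, 95% interval -0.60 to 0.53, adjusted p = 0.968 in limma). Over all 6 libraries, its 61 reads gave 1.21 RPM with an exact Poisson 95% interval of 0.926 to 1.55 RPM, which covers counting error only.

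The name on the opposite strand held nearly as many reads as miR-142a-3p. miR-142b had 9, 9 and 8 reads in I/R hearts, against 12, 5 and 7 reads in sham hearts. miR-142a-3p held 55.0% of the 111 reads of both names (95% Wilson interval 45.7% to 63.9%, counting error only), an interval that includes an even split. The strand setting of the counting is not known from the sources used here, so the level of either name alone is uncertain. Summed, both names lay at 2.81, 1.83 and 2.16 RPM in I/R hearts, against 2.72, 1.47 and 2.22 RPM in sham hearts. The groups still overlapped, and the log2 fold change of the sum was 0.07 (SE 0.23, adjusted p = 0.921 in limma).

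miR-223, the miRNA of granulocytes and monocytes, gave the only pair of groups among the 9 that did not overlap. miR-223-5p had 20.3, 17.6 and 21.8 RPM in I/R hearts, against 16.5, 15.3 and 14.6 RPM in sham hearts. All 3 I/R hearts were above all 3 sham hearts at this scale, with 144 to 172 reads per I/R library and 118 to 152 reads per sham library. A count of 1 of 9 without overlap compares with 15.2% of the 409 names, of which 46 (11.2%) were higher and 16 (3.91%) lower in I/R hearts. Its limma log2 fold change of 0.34 (SE 0.14, 95% interval 0.02 to 0.67) had an unadjusted p of 0.0404 and did not pass after adjustment (adjusted p = 0.598). With TMM scaling the value was 0.23, with an unadjusted p of 0.137 in limma. Without I/R heart 3, its highest library, it was 0.28 (95% interval -0.09 to 0.64, unadjusted p = 0.121 in limma). Without sham heart 2 it was 0.33 (95% interval -0.02 to 0.69, unadjusted p = 0.0592 in limma).

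The other arm of the same hairpin had overlapping groups. miR-223-3p, long taken as the main functional strand, had 5.86, 4.40 and 2.41 RPM in I/R hearts, against 3.37, 7.46 and 2.47 RPM in sham hearts. The highest value came from sham heart 2 and the lowest from I/R heart 3. Its log2 fold change was -0.01 (SE 0.36, 95% interval -0.83 to 0.82, adjusted p = 0.992 in limma). Without sham heart 2 the log2 fold change was 0.37 (adjusted p = 0.651 in limma), and without I/R heart 3 it was 0.27 (adjusted p = 0.950 in limma).

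Both lymphocyte-linked miRNAs had similar group means. miR-150-5p had 68.3, 72.9 and 74.9 RPM in I/R hearts, against 63.1, 83.2 and 70.3 RPM in sham hearts. All I/R values lay inside the range of the sham hearts. Its log2 fold change was 0.01 (SE 0.14, 95% interval -0.30 to 0.31, adjusted p = 0.989 in limma), with the sign turned by every other scaling tried, and without sham heart 2 it was 0.11 (95% interval -0.16 to 0.38, adjusted p = 0.731 in limma). miR-342-3p had 2.81, 3.79 and 5.21 RPM in I/R hearts, against 2.50, 8.02 and 2.84 RPM in sham hearts. Sham heart 2 was 2.83 times as high as the median of the other libraries. The log2 fold change of miR-342-3p was -0.03 (SE 0.36, 95% interval -0.85 to 0.78, adjusted p = 0.976 in limma), and without sham heart 2 it was 0.40 (adjusted p = 0.540 in limma).

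miR-155-5p, the miRNA of activated leukocytes, was steady across I/R hearts. It had 31.6, 32.2 and 32.8 RPM in I/R hearts, against 32.2, 41.7 and 31.1 RPM in sham hearts. Sham heart 2 lay above the other 5 libraries, which spanned 31.1 to 32.8 RPM. The log2 fold change was -0.11 (SE 0.15, 95% interval -0.44 to 0.23, adjusted p = 0.806 in limma), and with TMM scaling -0.22. Without sham heart 2 it was 0.02 (95% interval -0.25 to 0.29, adjusted p = 0.958 in limma).

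The miR-146 miRNAs were the most abundant of the set, and I/R heart 3 was the highest library for both. miR-146a-5p had 137, 119 and 214 RPM in I/R hearts, against 131, 126 and 112 RPM in sham hearts. I/R hearts 1 and 2 lay close to the sham hearts, and I/R heart 3 was 1.70 times the median of the other libraries. Its log2 fold change of 0.31 (SE 0.20, 95% interval -0.15 to 0.77, adjusted p = 0.661 in limma) was 0.06 without I/R heart 3 (95% interval -0.26 to 0.38, adjusted p = 0.956 in limma) and 0.19 with TMM scaling. miR-146b-5p had 206, 195 and 253 RPM in I/R hearts, against 174, 199 and 216 RPM in sham hearts. Its groups overlapped, with a log2 fold change of 0.15 (SE 0.14, 95% interval -0.17 to 0.46, adjusted p = 0.742 in limma) that was 0.03 without I/R heart 3 and 0.03 with TMM scaling. I/R heart 3 also had the highest level of 158 of the 409 names (38.6%) and the lowest of miR-1a-3p, the dominant muscle miRNA (351570 RPM, against 367970 to 382880 RPM in the other libraries). The part of this in the miR-146 values was not tested.

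The balance between both miR-146 paralogs did not separate the groups. miR-146b-5p held 60.0%, 62.1% and 54.2% of their summed reads in I/R hearts, against 57.1%, 61.3% and 65.9% in sham hearts. The means were 58.8 ± 4.08% in I/R hearts and 61.5 ± 4.38% in sham hearts (SD, n = 3 each), with a two-sided exact permutation p of 0.5. With 3 against 3 hearts such a test cannot go below 0.1. The difference of -2.69 percentage points was -0.407 without I/R heart 3. Reads that end before position 18 would fit both sequences, and no source used here says how such reads were assigned.

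**Figure D3:**
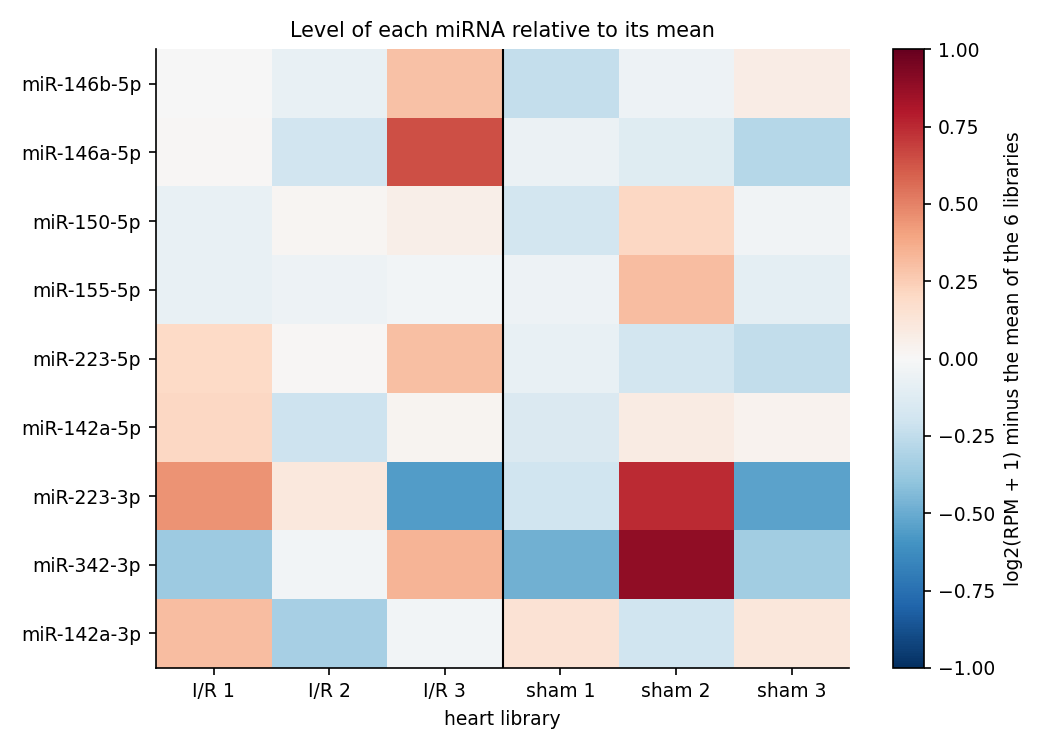
Log2(RPM + 1) of each of the 9 miRNAs minus its mean over the 6 libraries, with I/R hearts left of the line and sham hearts right of it. The highest library is sham heart 2 for miR-342-3p, miR-223-3p, miR-155-5p and miR-150-5p, I/R heart 3 for miR-146a-5p, miR-146b-5p and miR-223-5p, and I/R heart 1 for miR-142a-5p and miR-142a-3p.

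Differences between single hearts were larger than those between groups for several members. Sham heart 2 had the highest level of 4 of the 9, namely miR-342-3p, miR-223-3p, miR-155-5p and miR-150-5p, where it had the highest level of 72 of the 409 names (17.6%). The muscle miRNA miR-133a-3p was also high in sham heart 2, with 1798 RPM against 798 to 1006 RPM in the other libraries. So was miR-145a-5p of smooth muscle, with 78.0 RPM against 32.6 to 41.8 RPM. The other listed muscle miRNAs were not highest in that heart. miR-499-5p had its lowest level there (5217 RPM). miR-1a-3p, miR-208a-3p, miR-208b-3p and, of smooth muscle, miR-143-3p lay inside the range of the other libraries. The erythroid miR-451a, at 4.97 RPM, was inside the range of the other libraries there. Sham heart 2 was also inside the range of the other libraries for miR-142a-5p (11.0 RPM) and miR-223-5p (15.3 RPM). What set that heart apart was not tested.

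The spread between hearts was set against counting error and against names of like level. The spread within groups is given here as the variance of the reads over that expected from counting alone, where 1 means counting error only. This ratio grows with the number of reads, so each member is read only against names in its own range of levels. The ranges are wide, so a place above or below the median can still follow the number of reads. Among the 177 names with 1 to 10 RPM the median was 1.83. There miR-342-3p (10.9) and miR-223-3p (9.67) ranked 3rd and 5th for spread, with 2.05 and 4.16 without sham heart 2, and miR-142a-3p (1.10) lay below the median. Among the 118 names with 10 to 100 RPM the median was 3.91. There miR-223-5p (1.20) and miR-142a-5p (1.41) lay below it, miR-155-5p (4.27) near it and miR-150-5p (7.11) above it. Without sham heart 2, miR-155-5p had 0.108 and miR-150-5p 1.97. Among the 69 names with 100 to 1000 RPM the median was 24.1. There miR-146b-5p (27.3) lay near it and miR-146a-5p (67.9) ranked 14th, and without I/R heart 3 they had 14.0 and 7.75. Medians and ranks were computed with every library, so the values with a heart left out have no like median. The heart left out was also the highest library of each of these members, which makes a lower ratio likely beforehand.

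**Figure D4:**
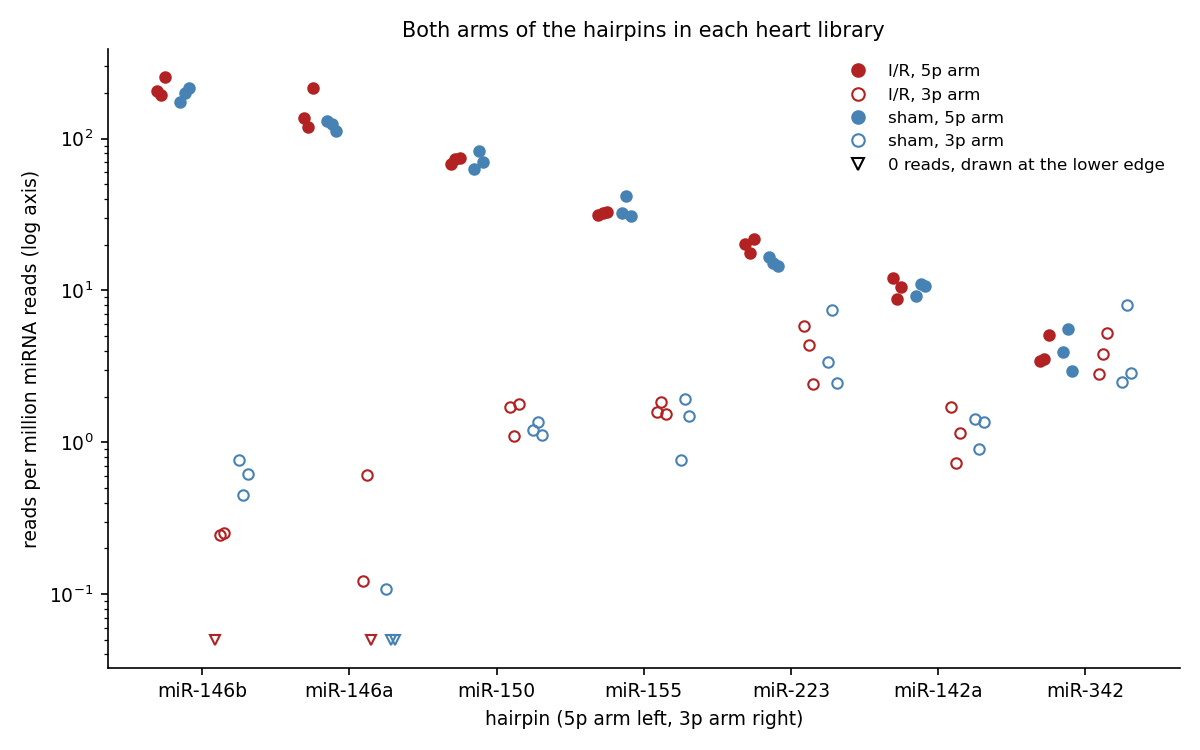
RPM (log axis) of the 5p arm (filled) and the 3p arm (open) of the 7 hairpins in I/R hearts (red) and sham hearts (blue), 1 symbol per library, with triangles for 0 reads. The 5p arm lies above the 3p arm in all 6 libraries for every hairpin except miR-342, whose arms overlap.

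Both arms of the 7 hairpins were compared, since the arms of a hairpin are cut together but kept to different degrees. The 5p arm was higher in 6 of 6 libraries for 6 hairpins, and for miR-342 each arm was higher in 3. As with the order of the members, these comparisons describe reads rather than molecules. miR-146a-5p and miR-146b-5p held 99.9% and 99.8% of the reads of their hairpins, miR-150-5p 98.1% and miR-155-5p 95.7%. miR-342-3p held 50.7% (95% Wilson interval 45.9% to 55.5%), and 39.0% to 59.2% in single libraries. Such intervals cover counting error only, not the spread between hearts. miR-142a-5p held 89.5% (86.8% to 91.8%) of the reads of both miR-142a arms. It held 87.6%, 92.3% and 90.2% in I/R hearts, against 86.7%, 92.4% and 88.7% in sham hearts (two-sided exact permutation p = 0.8).

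For miR-223 the arm named as the passenger held more reads. Whether this reflects molecules or capture was not tested. miR-223-3p is the strand known as the functional one in myeloid cells. miR-223-5p held 80.1% of the reads of the hairpin (95% Wilson interval 77.7% to 82.4%, which covers counting error only). It held 77.6%, 80.0% and 90.1% in I/R hearts, against 83.1%, 67.2% and 85.5% in sham hearts. The groups overlapped (two-sided exact permutation p = 0.7), and the adjusted p was 0.8 for each of the 3 balances tested. The difference of 3.96 percentage points was -1.74 without sham heart 2 and 0.208 without I/R heart 3. The spread came from the 3p arm, which varied 3.09-fold between the highest and lowest library, against 1.50-fold for the 5p arm.

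The other names of these hairpins were scarce. Of the 5 other arms and miR-142b, 3 passed the filter, namely miR-342-5p (2.96 to 5.54 RPM), miR-155-3p (0.761 to 1.92 RPM) and miR-150-3p (1.10 to 1.78 RPM), and limma's adjusted p was 0.798 to 0.976. miR-146b-3p did not pass the filter and had 0, 2 and 2 reads in I/R hearts, against 7, 4 and 5 reads in sham hearts. The groups did not overlap, as for 15.2% of the 409 names that passed the filter. The share among names below the filter was not counted. In limma without a filter, miR-146b-3p had an unadjusted p of 0.0444 and an adjusted p of 0.737. miR-146a-3p had 7 reads in all.

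A list of 12 further miRNAs linked to leukocytes or inflammation was set beside the members, and 11 passed the filter. In limma 0 of the 11 passed, and 0 had groups without overlap, against 62 of all 409 names (15.2%) without overlap. Of the 11, 10 had positive and 1 negative fold changes, where 287 of all 409 names (70.2%) were positive. The median log2 fold change was 0.23, against 0.10 over all 409 names. With TMM scaling 6 were positive and the median was 0.12, and without I/R heart 3 there were 7 positive and the median was 0.13.

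Of the macrophage-linked and monocyte-linked miRNAs of this list, miR-511 and miR-147-3p were scarce, and miR-9-5p was not. miR-511-3p, encoded in the mannose receptor gene Mrc1, had 2.20, 2.81 and 0.381 RPM in I/R hearts, against 1.41, 1.13 and 0.741 RPM in sham hearts. I/R hearts held both the highest and the lowest value, the latter on 3 reads in I/R heart 3. The other arm, miR-511-5p, had 3.42, 4.77 and 5.46 RPM in I/R hearts, against 3.91, 2.49 and 3.70 RPM in sham hearts. Its groups overlapped (log2 fold change 0.34, SE 0.22, adjusted p = 0.661 in limma). miR-147-3p, induced in macrophages by Toll-like receptor ligands, had 1.10, 1.83 and 2.92 RPM in I/R hearts, against 1.52, 1.70 and 0.370 RPM in sham hearts. Its log2 fold change was 0.44 (SE 0.33, 95% interval -0.32 to 1.20, adjusted p = 0.678 in limma). miR-9-5p, which monocytes induce through NF-κB but which other tissues also make, had 90.8, 144 and 146 RPM in I/R hearts, against 81.1, 132 and 96.3 RPM in sham hearts. The groups overlapped (log2 fold change 0.29, SE 0.23, adjusted p = 0.678 in limma).

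**Figure D5:**
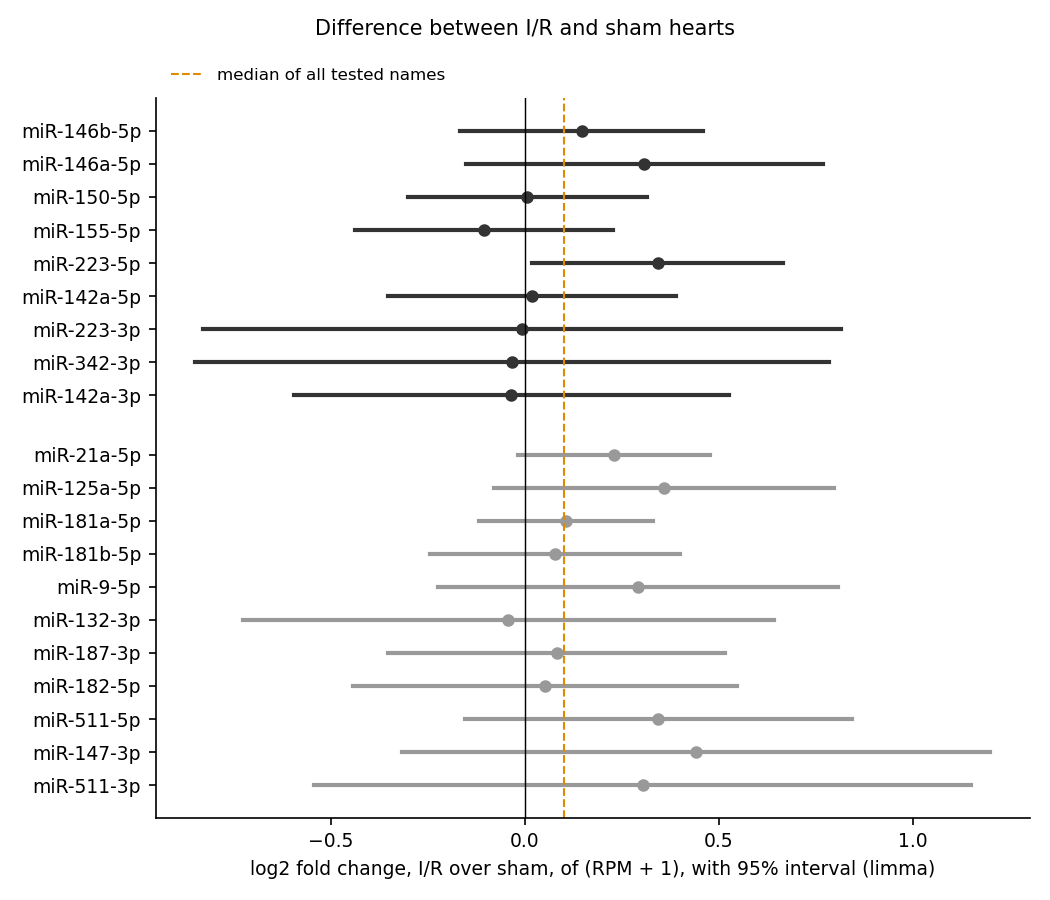
Log2 fold change of RPM + 1, I/R over sham hearts (n = 3 each), with the 95% interval from limma, for the 9 miRNAs (black) and 11 others linked to leukocytes or inflammation (grey). The dashed line is the median of all 409 names at 0.10. Of the 20 intervals, that of miR-223-5p alone lies wholly above 0, before adjustment.

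The intervals, which are not adjusted for the number of names, show the range of changes compatible with these libraries. They do not show how large a change the adjusted test could have called. All 9 excluded a doubling and a halving on the scale with the pseudocount of 1 RPM, which understates the change of scarce miRNAs. This did not hold for all 9 without either of the hearts that stood apart, since the fold interval reached 2.18 without I/R heart 3 and 2.15 without sham heart 2 for miR-223-3p, and 0.451 without I/R heart 3 for miR-342-3p. With a pseudocount of 0.1 RPM the fold interval of I/R over sham was 0.483 to 1.85 for miR-142a-3p, 0.499 to 2.004 for miR-223-3p and 0.499 to 1.96 for miR-342-3p. It was 0.732 to 1.17 for miR-155-5p, 0.808 to 1.25 for miR-150-5p, 0.890 to 1.38 for miR-146b-5p and 0.8995 to 1.71 for miR-146a-5p, whose 7008 reads were second only to those of miR-146b-5p.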

How the data were processed

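Small RNA was profiled in 3 I/R and 3 sham hearts. The kits described in the labels' protocols are for poly(A) mRNA, although the titles name miRNA-seq. The deposited table gives 1 signal per mature miRNA and library, called FPKM in its name. The submitters' processing notes name the mm10 build, fastp 0.23.0 and bcl2fastq 2.19.1.403. The sources used here do not give the aligner, miRNA annotation, strand setting or handling of reads that match several loci. In the deposited signal columns the totals were equal, and 100% of values were whole multiples of the smallest value above 0 (tolerance 0.01), so whole reads were recovered. Depth was 8196102, 8177824 and 7874103 reads in I/R hearts 1 to 3 and 9197869, 8847867 and 8099411 in sham hearts 1 to 3. RPM was computed from them. No source mentions molecular identifiers, so counting intervals cover counting error only.

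limma 3.58.1 (R 4.3.3, with a mean-variance trend, two-sided) tested log2(RPM + 1) over 409 names averaging 1 RPM or more and detected in 3 or more libraries. The design had been written for FPKM, and its test on log values was kept. The scripts were tested on simulated data. Alternatives were pseudocounts, filter, scalings, limma's settings, left-out libraries, the replicate block, edgeR 4.0.16 and DESeq2 1.42.0. The labels call the hearts biological replicates 1 to 3 of each group. Deviations from group means correlated at 0.14 to 0.28 between libraries of equal number, all above 0.1, and at -0.19 to 0.07 between others. For each name the deviations of a group sum to 0, so these correlations are not independent. From the data alone the numbers may pair libraries, which the labels do not state. The main fits and permutation tests did not use a pairing, and the replicate block was run as an alternative. All libraries of a group differed beyond sampling noise. All members were named. The members and lists were chosen with earlier results of these data known. Hairpin positions come from RefSeq (GRCm38.p6) and overlapping genes from GENCODE M21 (GRCm38).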

Additional observations from a re-analysis of the deposited data

How the results depend on the processing

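Of the 9 miRNAs, 0 were called under each of the 19 alternatives, including limma with the replicate block, where the smallest adjusted p of a member was 0.375 (miR-223-5p). The block changed the call of no member. With it the SE in limma was 0.25 for miR-223-3p, against 0.36 in the main test, and 0.16 for miR-223-5p, against 0.14. Over all names, calls numbered 0 in the main test, 1 without a filter, 4 in limma with the replicate block, 4 in edgeR with the block (added after seeing the data), 2 in DESeq2 and 0 to 1 with a library left out (1 without sham replicate 2). miR-223-5p, miR-146a-5p and miR-146b-5p kept a positive fold change under every alternative run, from 0.23 to 0.42, 0.06 to 0.48 and 0.02 to 0.22 on the log2 scale. miR-142a-5p turned to -0.071 with median-ratio scaling, -0.086 with TMM scaling, -0.046 with totals without the 10 most abundant names, -0.059 with quantile normalization, -0.084 in edgeR, -0.069 in DESeq2 and -0.091 in edgeR with the block. miR-150-5p turned to -0.092, -0.11, -0.064, -0.20, -0.11, -0.098 and -0.11 under the same 7. These scalings moved the median of all names from 0.10 to between -0.01 and 0.04. With a library left out, log2 fold changes ran from -0.20 to 0.12 for miR-142a-3p, -0.081 to 0.13 for miR-142a-5p, -0.28 to 0.37 for miR-223-3p, -0.085 to 0.11 for miR-150-5p, -0.18 to 0.023 for miR-155-5p and -0.28 to 0.40 for miR-342-3p. miR-142a-3p summed with miR-142b gave 0.068. The difference in share, I/R minus sham, ran from -4.84 to -0.407 percentage points for miR-146b, -0.475 to 2.35 for miR-142a-5p and -1.74 to 7.43 for miR-223-5p, with main values of -2.69, 0.787 and 3.96. The cause of these turns was not tested. Depth limits miR-142a-3p most, with 61 reads in all.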
